A study of Mus musculus with 3 samples.

Results

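The miRNAs described here are the mouse miRNAs with late registry numbers. They were chosen by name alone. A mature miRNA called miR-N was included when N was 1000 or more, with any letter or arm, and the 7 numbers of miR-1188, miR-1193, miR-1197, miR-1247, miR-3070, miR-3071 and miR-3072 were left out. Of the 627 mature miRNAs in the deposited table, 82 met this rule (13.1%). Another 518 had a number below 1000, and the other 27 were 20 let-7 names and 7 miRNAs with numbers left out. The ovaries came from newborn CD1 mice and were cultured for 72 h with di(2-ethylhexyl) phthalate (DEHP), a plasticizer, to learn how it affects ovarian miRNA expression while primordial follicles form. The groups were 0 μM DEHP with the solvent DMSO alone, 10 μM and 100 μM DEHP, all in the same culture medium. Each group was 1 miRNA-seq library made from pooled ovaries, so no difference between concentrations has a replicate check, and no test was made. In such bulk libraries, fewer cells of a type and less RNA per cell cannot be told apart.

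The miRNA registry gives its numbers in order of submission, so a high number marks an entry that was found late, often by deep sequencing. A canonical miRNA is cut by Drosha and then by Dicer from a hairpin, which leaves a 5p and a 3p strand, and the loaded strand finds its targets through the seed at bases 2 to 8. Other small RNAs can reach the same size by other routes. Mirtrons are cut out of short introns by splicing in place of Drosha, and some small RNAs are pieces of small nucleolar RNAs (snoRNAs) or of their Cajal body relatives (scaRNAs), which guide chemical modification of ribosomal and spliceosomal RNA. The class is not made of rodent entries only, as the names miR-1251, miR-1291 and miR-1306 are also used for human miRNAs.

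A mature sequence was found in RefSeq for 73 of the 82 late-numbered miRNAs (89.0%) and for 429 of the 518 miRNAs with lower numbers (82.8%). The sequences of the most abundant members are shown first, because the counts of the class rest on them. They are written 5′ to 3′ with the seed in capitals, on the assembly GRCm38.p6. The RefSeq table did not hold miR-5099, which also belongs to the 10 most abundant.
miR-1981-5p: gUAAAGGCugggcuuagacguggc
miR-1839-5p: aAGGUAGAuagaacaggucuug
miR-1843a-5p: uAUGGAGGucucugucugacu
miR-1843b-5p: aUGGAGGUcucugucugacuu
miR-3535: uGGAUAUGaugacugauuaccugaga
miR-3081-3p: uUGCGCUCcgaucucugagcugg
miR-3470b: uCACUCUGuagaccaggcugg
miR-3068-3p: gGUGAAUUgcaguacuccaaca
miR-3068-5p: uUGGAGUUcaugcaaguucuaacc
No seed was shared among these 9 sequences, although miR-1843a-5p and miR-1843b-5p had 20 bases in common at an offset of 1 base. miR-1981-5p (chr1:184822465-184822488, minus strand) began at the first base of an intron of Marc2, and miR-1981-3p (chr1:184822409-184822429) ended 2 bases before the end of the same intron.

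Some of the most abundant late-numbered miRNAs had sequences that also lie in snoRNA or scaRNA genes. An exact match on the sense strand of a snoRNA or scaRNA in the GENCODE annotation was found for 14 of 73 late-numbered miRNAs (19.2%) and for 3 of 429 with lower numbers (0.699%), which were miR-664-3p, miR-664-5p and miR-677-5p. The 14 included miR-1839-5p, whose hairpin gene is itself annotated as a scaRNA, both arms of miR-1843a and miR-1843b (Scarna3a and Scarna3b), both arms of miR-3068, which is annotated as a snoRNA, and both arms of miR-3084 (Snora19). miR-3535 (chr1:86352062-86352087, minus strand) matched the snoRNA Gm24148 in the nucleolin gene Ncl. miR-3069-3p matched Scarna13 and miR-6516-5p the scaRNA Gm26083. The 2 sequences that follow belong to members in snoRNAs of named host genes, a C/D box snoRNA in the ribosomal protein gene Rpl13a and an H/ACA snoRNA in Kansl2.
miR-5121 in Snord33: aGCUUGUGaugagacaucucc
miR-1291 in Snora34: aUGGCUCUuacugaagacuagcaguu
These 14 members held 58.2% of the late-numbered counts at 0 μM, 56.2% at 10 μM and 37.8% at 100 μM DEHP. The transcripts searched include the ribosomal RNA genes of that annotation but no nuclear tRNA genes, and it was not checked whether they hold the whole ribosomal precursor, so other sources of a member without a match were not tested. A match in sequence does not tell whether a read came from a miRNA hairpin or from the longer RNA.

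A further group lay at the ends of introns, the place of mirtron arms. A mature end within 5 bases of an intron end on the same strand was found for 8 of 73 late-numbered miRNAs (11.0%) and for 7 of 429 lower-numbered ones (1.63%). The 8 were both arms of miR-1981 (Marc2), miR-3082-3p (Stub1), miR-3102-3p (Arhgef17), miR-7068-3p (Cherp), miR-7226-3p (Ptprf), miR-6944-3p (Dbn1) and miR-6973b-3p (Gfra4). The sequences of 3 of the 3p strands are given because they end at, or 1 base before, the last base of the intron.
miR-7068-3p: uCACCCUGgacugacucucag
miR-3082-3p: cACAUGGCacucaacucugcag
miR-3102-3p: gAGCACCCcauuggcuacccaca
miR-7068-3p lies at chr8:72470016-72470036 on the minus strand. Of the remaining late-numbered miRNAs, 19 overlapped an exon on the same strand (26.0% of the 73) and 29 lay within an intron (39.7% of the 73). Another 6 were on the strand opposite to a gene and 11 (15.1% of the 73) lay outside annotated genes. Genes of snoRNAs, scaRNAs, other small RNAs and miRNAs were left out here, so members in them were placed by any surrounding gene. Among lower-numbered miRNAs, the share outside annotated genes was 31.9%.

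Members could also resemble repeats or each other. The sequences of miR-3470b, miR-3473b, miR-3473a and miR-3471 occurred in transcripts of 546, 344, 146 and 34 genes, whereas no lower-numbered miRNA occurred in 10 genes or more. That of miR-3470b resembles the B1 element, a short repeat spread through rodent genomes. Runs of 15 or more shared bases joined 4 pairs that include a late-numbered miRNA. The first 3 are shown as the shared run in lower case, with the other bases in capitals.
miR-1843a-5p: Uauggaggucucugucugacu
miR-1843b-5p: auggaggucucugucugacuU
miR-3473b: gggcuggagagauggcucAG
miR-3473e: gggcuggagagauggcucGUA
miR-3962: agguaguaguuuguacaUUU
let-7g-5p: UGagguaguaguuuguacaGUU
The counts of miR-1843a-5p were 3570, 2507 and 1762 and those of miR-1843b-5p 3563, 2498 and 1751, so the first were 100.2% to 100.6% of the second. At this likeness reads of the pair cannot be told apart, and the pair was read as 1 measurement. miR-3962 had 16, 9 and 5 counts, beside 158793, 158248 and 91731 for let-7g-5p, with which it shares 17 bases. That is at most 0.0101% of the let-7g-5p count, and whether these reads belong to miR-3962 was not tested.

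Seeds were rarely shared. Of the late-numbered miRNAs, 4 of 73 (5.48%) had the seed of another miRNA in the table, against 151 of 429 lower-numbered ones (35.2%), where families such as miR-30 and miR-200 are long known. miR-3473b and miR-3473e had the seed GGCUGGA in common. The other pairs are printed in full, since their members come from both number classes.
miR-1983: cUCACCUGgagcauguuuucu
miR-412-3p: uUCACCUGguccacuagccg
miR-6240: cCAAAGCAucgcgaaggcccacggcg
miR-330-3p: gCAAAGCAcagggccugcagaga
miR-1983 had 503, 591 and 283 counts at 0, 10 and 100 μM DEHP, and miR-412-3p had 15, 22 and 5. miR-6240 had 192, 425 and 75 counts, and miR-330-3p had 217, 243 and 224. In normalized counts, which are introduced with the library sizes, miR-6240 was highest at 10 μM and its seed partner miR-330-3p at 100 μM.

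The median length was 22 bases in both number classes. Lengths of 21 to 23 bases were found in 76.7% of late-numbered and in 91.1% of lower-numbered sequences. The median GC content was 54.5% and 45.5%. A first base of U, the base that Argonaute proteins favour, was present in 47.9% and 42.4%. Across 61 late-numbered miRNAs, the Pearson correlation of GC content with the dose ratios was 0.01 for 100 against 0 μM and 0.21 for 10 against 0 μM. The Spearman correlations were 0.03 and 0.11. Over 412 lower-numbered miRNAs the Pearson values were 0.15 and 0.07. All are taken over miRNAs of the same libraries, which are not independent replicates.

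**Figure D1:**
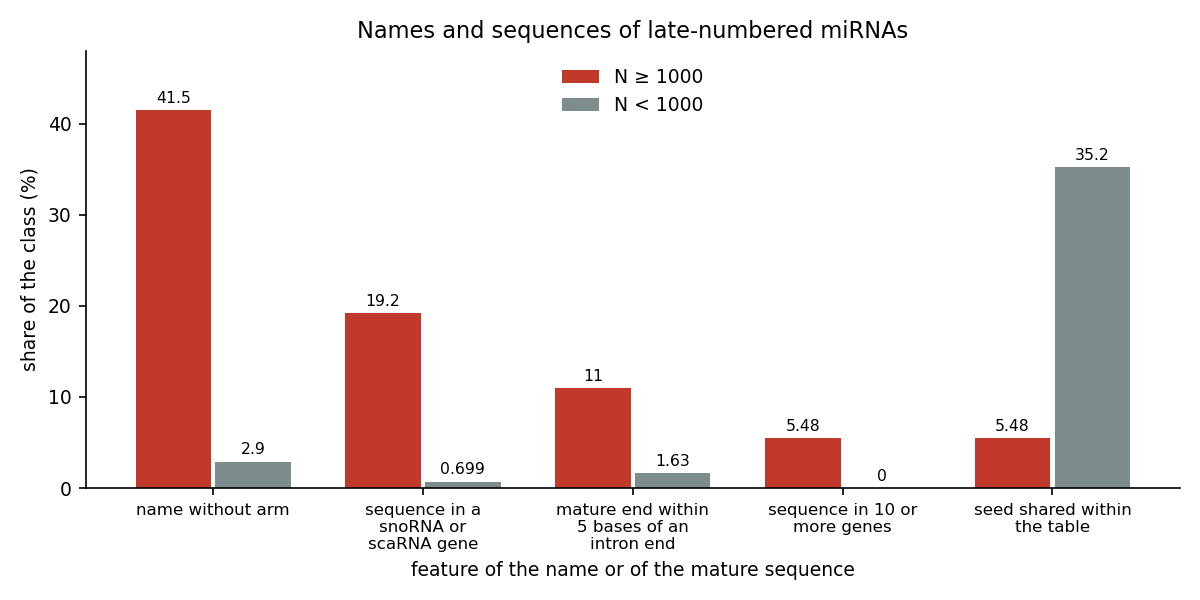
Share of each number class, in percent, with 5 features of the name or mature sequence. Red bars are miRNAs with N of 1000 or more and grey bars those with N below 1000. The name feature is over 82 and 518 miRNAs, and the others over the 73 and 429 with a RefSeq sequence. Red bars are higher for names without an arm (41.5% against 2.90%) and for snoRNA or scaRNA matches (19.2% against 0.699%), and lower for shared seeds (5.48% against 35.2%).

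The libraries held 5253367 counts at 0 μM, 5064602 at 10 μM and 5952274 at 100 μM DEHP. Size factors by the median of ratios were 1.38, 1.35 and 0.546, so a typical miRNA had far fewer counts in the 100 μM library although its total was the highest. Counts divided by these factors are called normalized counts. Markers of the gonad and of other tissues were summed by list, and their part in the results was not tested. The 2 miR-202 arms of the gonad had summed normalized counts of 31188, 40382 and 19964, with miR-202-5p lower and miR-202-3p higher at 100 than at 0 μM. The 4 germ cell markers summed to 2297, 1608 and 4833, and 3 of them were higher at 100 μM, with miR-293-3p as the exception. Of markers of other tissues, the endothelial miR-126a-3p had 39638, 44490 and 9105 normalized counts, and the 3 blood markers summed to 948, 1009 and 835, each lower at 100 μM. The 3 muscle markers summed to 284, 214 and 480.0, and 2 of them were higher at 100 μM. Of the nervous system list 1 of 2 was in the table, miR-9-5p with 512, 497 and 660 normalized counts, miR-124-3p not being listed. The liver marker miR-122-5p had 16.0, 10.4 and 14.7. These directions rest on the size factors. Of the markers with higher normalized counts at 100 than at 0 μM, only miR-294-3p also had a higher raw count (1192 against 463). The raw counts of miR-291a-3p were 465 at 0 μM and 351 at 100 μM, and those of miR-295-3p 729 and 564.

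Late-numbered miRNAs made up 13.1% of the names but under 1% of the counts. They held 31128 counts at 0 μM, 27902 at 10 μM and 44703 at 100 μM. As shares of the library these were 0.593% (Wilson 95% interval 0.586% to 0.599%), 0.551% (0.545% to 0.557%) and 0.751% (0.744% to 0.758%). The share was highest in the 100 μM library and lowest in the 10 μM library, and the 3 intervals, which hold counting error only, did not overlap. Within these shares, miR-1981-5p alone held 0.0540% of the library at 0 μM, 0.0385% at 10 μM and 0.208% at 100 μM. The higher share at 100 μM thus rested largely on this 1 miRNA. The median late-numbered miRNA had 28.5, 31.5 and 18 counts, and the median lower-numbered miRNA 329, 311.5 and 132. In normalized counts the late medians were 20.7, 23.4 and 33.0, and the lower-numbered ones 239, 231 and 242.

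At 0 μM, 41 of the 82 late-numbered miRNAs (50%) had 10 to 29 counts, 17 had 30 to 99, 15 had from 100 to below 1000 and 9 had 1000 or more. Of the 518 lower-numbered miRNAs, 76 (14.7%) had 10 to 29 counts and 190 (36.7%) had 1000 or more. Few of the late-numbered miRNAs were abundant. The 5 most abundant members held 60.6% of the counts of the class at 0 μM, 61.0% at 10 μM and 74.7% at 100 μM, and the 10 most abundant held 82.0%, 79.0% and 92.2%. The highest count was 6153 at 0 μM and 6480 at 10 μM, both of miR-1839-5p, and 12381 at 100 μM, of miR-1981-5p.

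**Figure D2:**
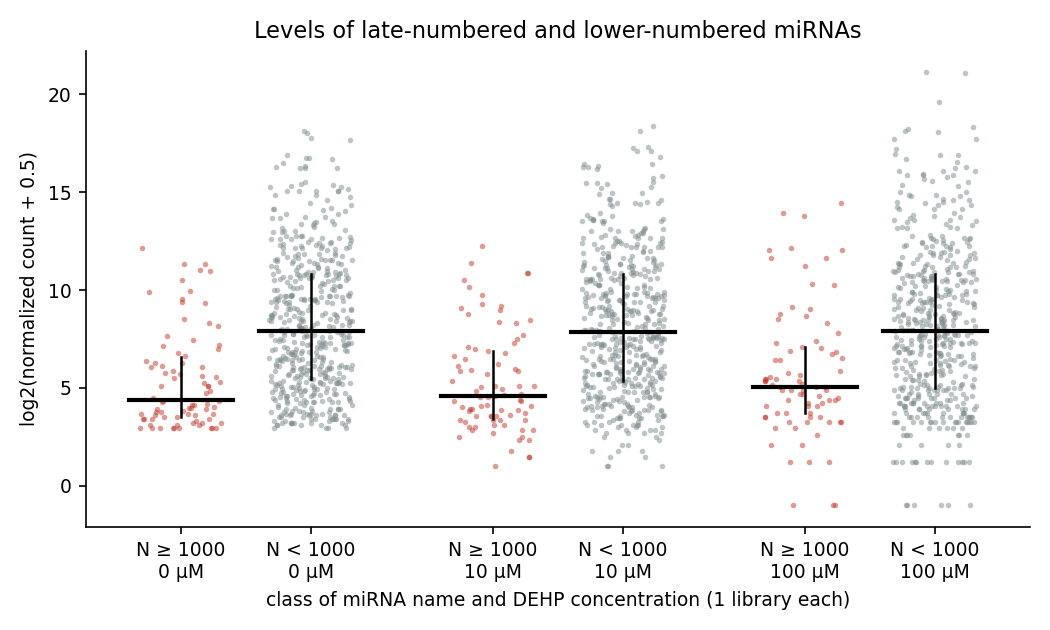
Level of each miRNA as log2 of the normalized count with 0.5 added (vertical axis) by number class and DEHP concentration, 1 point per miRNA. Horizontal bars are medians and vertical bars the interquartile range over miRNAs. In each of the 3 libraries the 82 late-numbered miRNAs (red) have a lower median than the 518 lower-numbered ones (grey).

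No miRNA of the table had fewer than 10 counts at 0 μM, while counts down to 0 occurred in the 100 μM library. At 10 μM, 3 late-numbered miRNAs (3.66%) had 3 counts or fewer, and at 100 μM 9 did (11.0%). Among lower-numbered miRNAs these were 5 (0.965%) and 30 (5.79%). The classes started from unlike levels, as 50% of late-numbered and 14.7% of lower-numbered miRNAs had 10 to 29 counts at 0 μM. The shares were not compared at equal starting counts, so they do not set the class apart. A count of 3 corresponds to 2.18 normalized counts at 0 μM, 2.23 at 10 μM and 5.50 at 100 μM. The 3 at 10 μM were miR-3069-3p with 2 counts and miR-1929-5p and miR-5615-5p with 3 each. At 100 μM, miR-8114, miR-6239 and miR-3473e had 0 counts, miR-3963, miR-3084-3p and miR-1948-5p had 1, miR-8112 and miR-5132-5p had 2 and miR-3102-3p.2-3p had 3. All 9 had at least 6 counts at 10 μM, and the 3 that were low at 10 μM had 10, 4 and 7 counts at 100 μM.

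By number, 27 members lay from 1000 to below 2000, 1 from 2000 to below 3000 (miR-2137), 28 from 3000 to below 4000, 7 from 4000 to below 6000, 9 from 6000 to below 7000 and 10 at 7000 or more. The first band held 59.7%, 57.3% and 58.2% of the late-numbered counts in the 3 libraries. The band from 3000 held 28.9%, 25.4% and 23.7%. The 7 members from 4000 to below 6000 held 9.52%, 13.7% and 17.1%, of which miR-5099 alone held 8.82%, 12.8% and 17.0%. The 9 members from 6000 and the 10 from 7000 held 1.05% and 0.607% at 0 μM. The abundance of the class thus lay in its lower numbers.

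The most abundant late-numbered miRNA by mean normalized count was miR-1981-5p, the strand at the start of the Marc2 intron. It had 2836 counts at 0 μM, 1951 at 10 μM and 12381 at 100 μM DEHP, and was number 70 among all 627 miRNAs. Its log2 ratio of 10 to 0 μM was -0.51, with a 95% interval from -0.59 to -0.42, and that of 100 to 0 μM was 3.46, from 3.40 to 3.52, an 11.0-fold higher normalized count. A log2 ratio here compares normalized counts after 0.5 is added to each, and its interval, from the split of the 2 counts, holds counting error only. With total-count scaling, ratios between 100 and 0 μM shift by -1.52, so that smaller positive values turn negative. Its opposite strand, miR-1981-3p, had 197, 214 and 303 counts, with log2 ratios of 0.15 and 1.95.

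miR-1839-5p, in a scaRNA gene, had 6153, 6480 and 8605 counts. It was nearly level between 0 and 10 μM (log2 ratio 0.11) and higher at 100 μM (1.82, 95% interval 1.77 to 1.87). miR-5099 had 2745, 3577 and 7580 counts and was higher at both concentrations, with log2 ratios of 0.41 and 2.80. miR-3535, in the snoRNA of Ncl, had 903, 1159 and 2462 counts and log2 ratios of 0.39 and 2.78. These 3 were highest at 100 μM and not lower at 10 μM than at 0 μM.

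With the size factors, the other 6 were lower at 10 μM than at 0 μM and higher at 100 μM, but with total-count scaling both miR-1843 entries and both arms of miR-3068 were lower at 100 μM too. miR-3081-3p, in an intron of Boc, had 1385, 687 and 2346 counts, and its log2 ratios were -0.98 (-1.11 to -0.85) and 2.10. The repeat-like miR-3470b had 1035, 829 and 2322 counts, with log2 ratios of -0.29 and 2.50. miR-1843a-5p and miR-1843b-5p, read as 1 measurement, had log2 ratios of -0.48 and 0.32. The arms of miR-3068 had the same directions but intervals that lay apart. miR-3068-3p had 1985, 1530 and 1315 counts (log2 ratios -0.34 and 0.74) and miR-3068-5p 1304, 787 and 680 (-0.70 and 0.40).

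**Figure D3:**
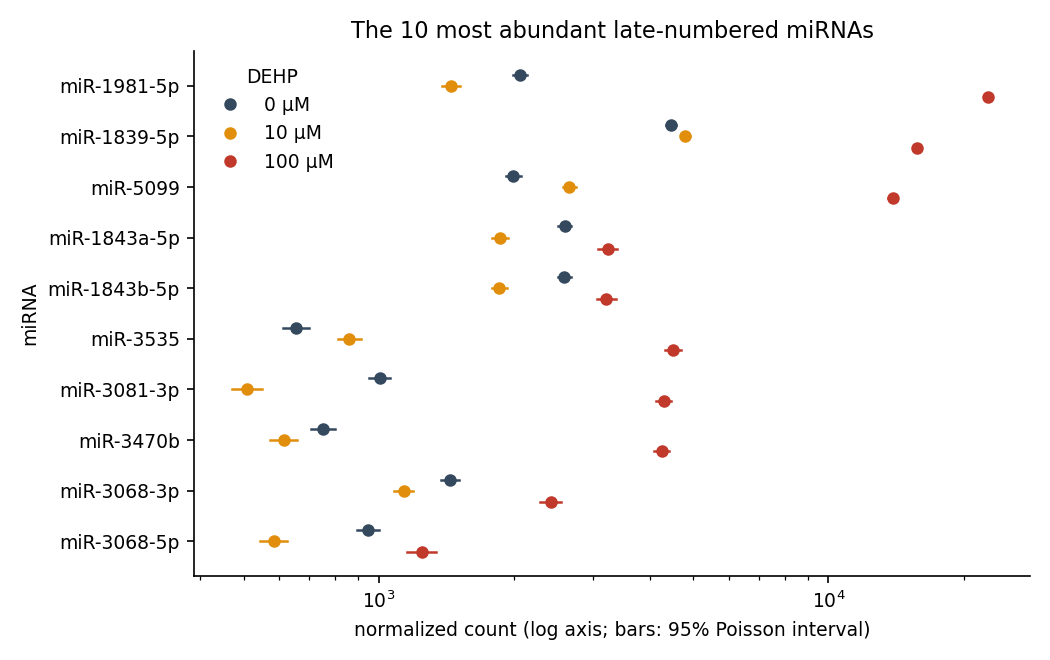
Normalized counts (horizontal log axis) of the 10 late-numbered miRNAs of highest mean, with 1 point per library and bars for the exact Poisson 95% interval, which holds counting error only. The red points of 100 μM DEHP lie to the right of both other libraries in all 10, and farthest for miR-1981-5p. The mean used for this choice includes the 100 μM library, which favours miRNAs that are high there. miR-3471, with 938 counts at 0 μM beside 903 for miR-3535, was not among the 10. Its log2 ratio of 100 to 0 μM was -0.73. With total-count scaling those of both miR-1843 entries and both miR-3068 arms would lie to the left of 0 μM.

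Between 100 and 0 μM DEHP, late-numbered miRNAs were more often far higher than far lower with the size factors, and the reverse with total-count scaling. Of the 82, 69 had a mean normalized count of at least 10, and 11 of these (15.9%) had a log2 ratio above 2, beside 10.4% of all 587 miRNAs that passed and 49 of 494 lower-numbered ones (9.92%). Below -2 lay 4 late-numbered miRNAs (5.80%), beside 9.37% of all and 49 lower-numbered ones (9.92%). The 4 were miR-3970, miR-3963, miR-8114 and miR-6239, of which 3 had 0 or 1 counts at 100 μM. With all 82 and no minimum, 11 were above 2, beside 9.73% of all 627, and 6 below -2, beside 10.4%. Total-count scaling gave 1 of 70 late-numbered miRNAs above 2, beside 0.675% of all, and 17 below -2, beside 35.9% of all.

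The median log2 ratio between 100 and 0 μM was 0.74 over the 69 late-numbered miRNAs, -0.09 over the lower-numbered ones and -0.01 over all, and with total-count scaling the late-numbered median was -0.85. The minimum bears on this median. A miRNA with 10 to 13 counts at 0 μM passed only with higher values in another library, and 13 of the 82 did not pass. Over all 82 the median was 0.45, beside -0.12 for all 518 lower-numbered miRNAs, and over the 41 with at least 30 counts at 0 μM it was 0.32, beside -0.10. The counting interval lay above 0 for 36 of the 69, below 0 for 13, and held 0 for 20. Over all 587 miRNAs these numbers were 225, 218 and 144.

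At 0 μM counts of 1000 or more the direction was the same throughout the class. All 9 such late-numbered miRNAs had a log2 ratio above 0 between 100 and 0 μM, with a median of 1.82, while 83 of the 190 lower-numbered ones did, with a median of -0.14. This ended at that bound. With 100 to below 1000 counts at 0 μM, 8 late-numbered miRNAs were above 0 and 7 below, with a median of 0.13. Both miR-1843 entries and both miR-3068 arms had ratios small enough to turn negative with total-count scaling. Between 10 and 0 μM the intervals of 7 of the 9 lay below 0, beside 76 of the 190 lower-numbered ones. The 9 hold both miR-1843 entries and both arms of miR-3068, so they are fewer than 9 separate measurements.

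The 5 largest log2 ratios between 100 and 0 μM whose interval left out 0 were those of miR-7068-3p, miR-1981-5p, miR-5099, miR-3535 and miR-6538. miR-7068-3p, at an intron end of Cherp, had 10, 15 and 47 counts, and its log2 ratio of 3.48 (2.57 to 4.72) was as large as that of miR-1981-5p but far less precise. miR-6538 had 23, 38 and 61 counts and a log2 ratio of 2.71 (2.03 to 3.50). Both were low in the 0 μM library, where the table's minimum of 10 counts lies close. The other 6 above 2 were miR-3470b, miR-3066-5p, miR-1943-5p, miR-3081-3p, miR-7073-5p and miR-3473a.

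Among the lower values, miR-3970 had 112, 78 and 5 counts, a log2 ratio of -3.08 (-4.80 to -1.88) at 100 μM. miR-3963 had 36, 79 and 1 counts, and its log2 ratio was -3.51 with an interval of -9.18 to -1.26. miR-8114 had 23, 26 and 0 counts and was at least 3.04-fold lower than at 0 μM against a floor of 3 counts in the library. On the same basis miR-6239, with 14, 27 and 0 counts, was at least 1.85-fold lower, and miR-3473e, with 13, 9 and 0 counts and no pass of the minimum, at least 1.72-fold lower. These folds rest on the floor of 3 counts. The intervals for counting error came closer to 0, with upper ends at log2 ratios of -1.19, -0.39 and -0.27. miR-3074-5p had 51, 30 and 6 counts and a log2 ratio of -1.71 (-3.26 to -0.53). All of these had 112 counts or fewer at 0 μM, so none of the abundant members was among them.

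**Figure D4:**
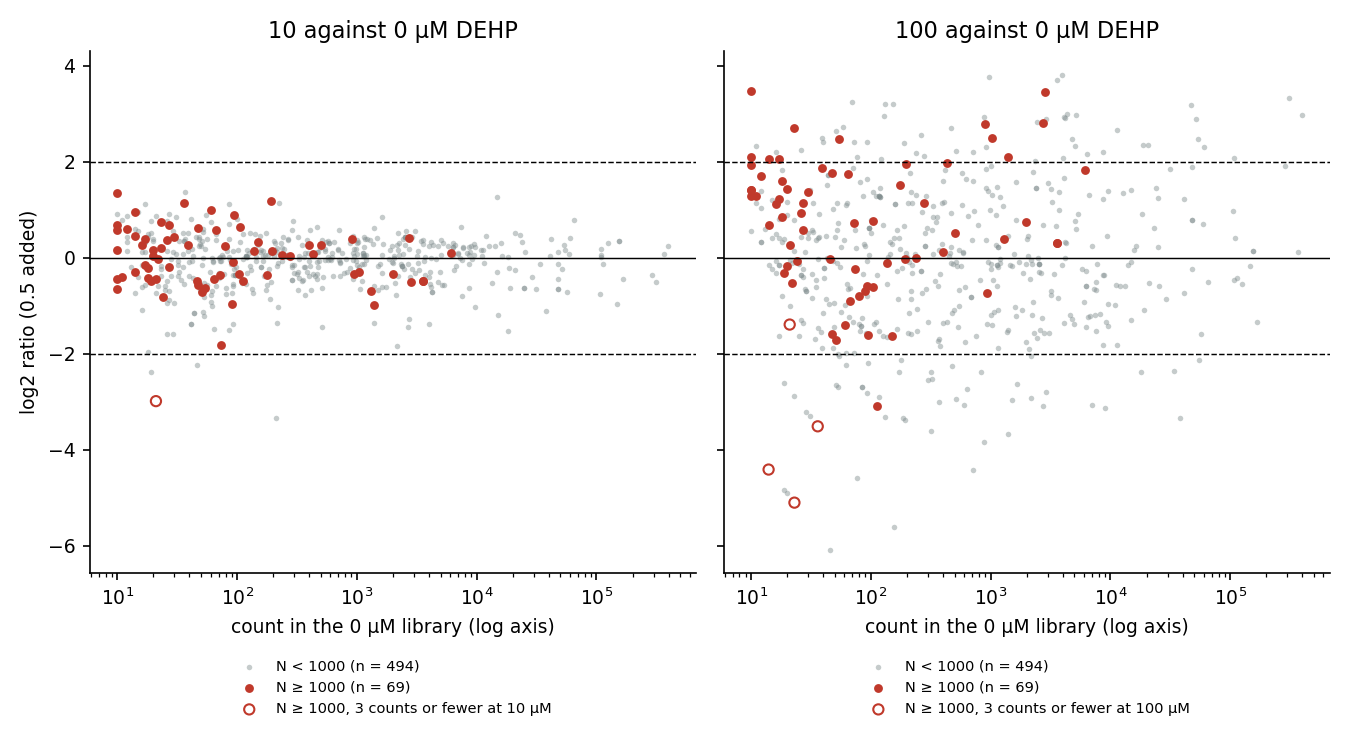
Log2 ratio to the 0 μM library (vertical axis, 0.5 normalized counts added) against the count at 0 μM (horizontal log axis), for 10 μM on the left and 100 μM on the right. Grey points are 494 miRNAs with N below 1000, red points 69 late-numbered miRNAs, open circles those with 3 counts or fewer at the higher concentration, and dashed lines mark ratios of 2 and -2. On the right the red points at 1000 counts or more all lie above 0, and on the left all but 1 of the 69 red points lie between the dashed lines.

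Between 10 and 0 μM DEHP the late-numbered miRNAs differed little. No late-numbered miRNA was above a log2 ratio of 2, beside 0% of all 587, and 1 was below -2 (1.45%), beside 0.681% of all and 3 lower-numbered ones. That was miR-3069-3p, with 21, 2 and 10 counts, and its log2 ratio was -2.99, within -6.50 to -1.33. With no minimum 2 were below -2, beside 1.44% of all, the other being miR-1929-5p with 15, 3 and 4 counts. The median log2 ratio was 0.03 for late-numbered and 0.01 for lower-numbered miRNAs, and with no minimum -0.12 and -0.01. The interval held 0 for 41 of the 69 late-numbered miRNAs, lay above 0 for 14 and below it for 14. Over all 587 miRNAs these numbers were 263, 165 and 159.

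The largest values at 10 μM were modest. miR-1943-5p had 10, 26 and 18 counts and a log2 ratio of 1.35 (0.31 to 2.63). miR-6240 had 192, 425 and 75 counts, and its 1.18 (0.93 to 1.43) was the most precise of the 5. miR-3963 (1.15) and miR-1291 (0.99), which had 61, 119 and 9 counts, were likewise highest at 10 μM and lowest at 100 μM. So was miR-2137, with 94, 171 and 12 counts and a log2 ratio of 0.89 at 10 μM and -1.61 at 100 μM.

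On the lower side at 10 μM, miR-1251-5p, in an intron of the noncoding RNA gene Rmst, had 74, 20 and 25 counts. Its log2 ratio was -1.82 (-2.65 to -1.13) at 10 μM and -0.23 at 100 μM. miR-3081-3p (-0.98), miR-3472 (90, 45 and 22 counts, -0.96) and miR-3074-5p (-0.72) followed. Apart from miR-3081-3p, these had under 100 counts at 0 μM.

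The comparison of 100 with 10 μM shares its 100 μM library with the first comparison and its 10 μM library with the second. Above 2 lay 11 of the 69 late-numbered miRNAs (15.9%), beside 12.3% of all 587 and 60 lower-numbered ones (12.1%). Below -2 lay 6 (8.70%), beside 8.69% of all and 43 lower-numbered ones (8.70%). The largest log2 ratio was that of miR-1981-5p with 3.97 (3.90 to 4.04), followed by miR-3069-3p with 3.25 (1.40 to 6.86), which rests on its 2 counts at 10 μM. miR-3066-5p, in an intron of Nol10, had 54, 34 and 120 counts and a log2 ratio of 3.10 (2.56 to 3.72), and miR-3081-3p one of 3.07.

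Against the floor of 3 counts at 100 μM, miR-8114 was at least 3.51-fold lower and miR-6239 at least 3.64-fold lower than at 10 μM. The upper ends of their counting intervals were closer, at log2 ratios of -1.41 and -1.47. miR-3963 had a log2 ratio of -4.66 (-10.32 to -2.48), miR-3970 one of -2.59, and miR-2137 one of -2.50 (-3.51 to -1.69). The median log2 ratio was 0.84 for late-numbered, -0.15 for lower-numbered and -0.03 for all miRNAs. With total-count scaling 1 of 70 late-numbered miRNAs was above 2, beside 1.35% of all, and 15 were below -2, beside 38.1% of all.

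The spread of the log2 ratios was close to that of lower-numbered miRNAs at 100 μM and somewhat wider at 10 μM. The interquartile range between 100 and 0 μM was 2.07 for the 69 late-numbered and 2.13 for the 494 lower-numbered miRNAs, and between 10 and 0 μM it was 0.83 and 0.63. The standard deviations were 1.71 and 1.58 at 100 μM and 0.69 and 0.54 at 10 μM. Late-numbered miRNAs had lower counts, and the median width of their counting interval was 1.30 at 10 μM, beside 0.42 for lower-numbered ones.

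Within bins of the 0 μM count, late-numbered miRNAs had the wider spread in some bins and the narrower in others. With 10 to 29 counts at 0 μM, the interquartile range between 10 and 0 μM was 0.89 for 28 late-numbered and 1.09 for 52 lower-numbered miRNAs. With 30 to 99 counts it was 1.13 and 0.82, with 100 to below 1000 counts 0.46 and 0.46, and with 1000 or more counts 0.22 over 9 and 0.55 over 190. Between 100 and 0 μM the same bins gave 1.44 and 1.28, 2.76 and 2.04, 1.70 and 2.27, and 2.10 and 2.24. With 10 to 29 counts, 26 of the 28 late-numbered intervals at 10 μM held 0, beside 43 of the 52 lower-numbered ones.

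Names without an arm were frequent in the class. Of the 82 late-numbered miRNAs 24 were named 5p, 24 were named 3p and 34 (41.5%) had no arm, while 249 of the lower-numbered miRNAs were 5p, 254 were 3p and 15 (2.90%) had none. A name without an arm means that the registry holds a single mature strand for the hairpin. Within the class the log2 ratios of these names were the most spread. Their interquartile range between 100 and 0 μM was 2.32 over 29, beside 1.91 over 20 for 5p and 1.56 over 20 for 3p. Among lower-numbered miRNAs the order was the reverse, with 1.55 over 13 names without an arm, 1.85 over 240 for 5p and 2.16 over 241 for 3p. With the minimum, all 4 late-numbered miRNAs below -2 between 100 and 0 μM were among these 29 names without an arm. Another 5 of the 29 lay above 2. Of the 13 lower-numbered names without an arm, 2 lay below -2 and 2 above 2. Of all 43 names without an arm, 6 lay below -2 and 7 above 2. With no minimum, 6 late-numbered miRNAs were below -2, and these included an armed name, miR-3084-3p (-2.19).

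Both arms were counted for 7 late-numbered hairpins, and the 5p share of their counts needs no scaling. Of the 7, miR-1839, miR-1843a, miR-1843b, miR-3068 and miR-3084 have an arm in a snoRNA or scaRNA gene, so whether both arms came from the hairpin is not known. In 6 of the 7 the 5p strand was the more abundant, and miR-3068 was the exception. The 5p share of miR-1981 was 93.5% at 0 μM, with a 95% interval of 92.6% to 94.4%. It was 90.1% (88.8% to 91.3%) at 10 μM and 97.6% (97.3% to 97.9%) at 100 μM. Those intervals lay apart in each pair of libraries, as did those of miR-1843a, with 98.2%, 96.2% and 99.2%. Both had their lowest 5p share at 10 μM and their highest at 100 μM.

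For miR-1839 the share was 97.8% at 0 and at 10 μM and 99.4% at 100 μM, and only the last lay apart. miR-1843b went the other way, with 92.8%, 90.1% and 87.9%. Because the 5p reads of miR-1843a and miR-1843b cannot be told apart, the shares of these hairpins rest on their 3p counts, which were 67, 98 and 14 for miR-1843a and 275, 275 and 242 for miR-1843b. The 3p counts thus differed between the hairpins although their 5p counts were the same. For miR-3068 the 5p share was 39.6%, 34.0% and 34.1%.

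The low-count hairpins gave no clear split. miR-1306, which lies in an exon of Dgcr8, the gene for the partner of Drosha, had 5p shares of 62.7%, 74.8% and 75%, with overlapping intervals and 24 counts in all at 100 μM. miR-3084 had 57.6%, 56.5% and 85.7%, the last from 6 and 1 counts. In all, intervals lay apart for 5 of the 7 hairpins between 100 and 0 μM, for 4 between 10 and 0 μM and for 3 between 100 and 10 μM. The 7 include miR-1843a and miR-1843b, whose 5p reads cannot be told apart. The same count was not made over the other hairpins of the table, so these numbers do not set the class apart.

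**Figure D5:**
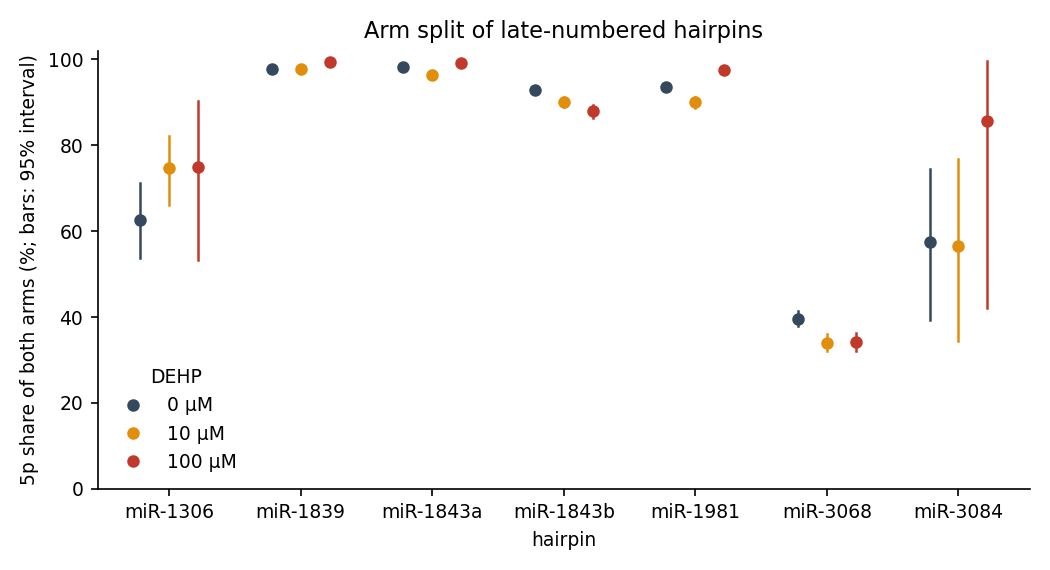
The 5p share of the counts of both arms, in percent, for the 7 late-numbered hairpins with both arms in the table, with 1 point per library and bars for the exact 95% binomial interval. miR-3068 lies below 40% and all other hairpins above 50%, and the intervals of miR-1306 and miR-3084 are wide because their counts are low.

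Dose ratios are given here for the groups by origin, as a description without a test. They cover all members of a group, with no minimum, where 9.73% of all miRNAs lay above 2 and 10.4% below -2 between 100 and 0 μM. Of the 14 members in snoRNA or scaRNA genes 1 was above 2 (miR-3535) and 1 below -2 (miR-3084-3p, with 1 count at 100 μM), and the median log2 ratio was 0.28. miR-5121, in Snord33, had 149, 184 and 19 counts and a log2 ratio of -1.62. The 59 others with a sequence, those at intron ends included, had a median of 0.53, with 9 above 2 (15.3%) and 4 below -2 (6.78%). Of the 8 members at intron ends 2 were above 2 and 0 below -2, with a median of 1.81. The 2 were miR-1981-5p and miR-7068-3p, and the latter reached the mean of 10 only through its 47 counts at 100 μM. The others were miR-1981-3p, miR-3102-3p (39, 46 and 57 counts, log2 ratio 1.87), miR-3082-3p (64, 46 and 86 counts, 1.75), miR-7226-3p (16, 19 and 14 counts, 1.11), miR-6944-3p (10, 10 and 7 counts, 0.78) and miR-6973b-3p (10, 4 and 4 counts, 0.01). All 8 were thus above 0 with the size factors, beside 298 of all 627 miRNAs, and they include both arms of miR-1981. With total-count scaling 5 of the 8 stayed above 0. The same number was not counted over all miRNAs with that scaling, so it is not a result about the group.

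Some mature names had several rows, from separate precursors, and the row of highest total was used. This concerned 6 late-numbered miRNAs. The rows were identical for miR-3074-5p, miR-3084-3p, miR-3084-5p and miR-5615-5p. For miR-1843b-5p they were 3563, 2498 and 1751 against 2930, 2035 and 1648 counts, and for miR-3471 938, 724 and 224 against 809, 618 and 197. In both pairs the rows had the same order of libraries.

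At the edge of the rule, the miRNAs with numbers just below 1000 were miR-935, with 12, 9 and 3 counts, miR-883b-3p, with 97, 83 and 40, and miR-883b-5p, with 36, 45 and 14. Those just above were miR-1191a, with 104, 80 and 27 counts, miR-1194, with 176, 134 and 201, and miR-1195, with 92, 84 and 24. Among the names left out were miR-1193-3p (301, 357 and 38 counts), miR-1247-3p (85, 69 and 308 counts, log2 ratio between 100 and 0 μM 3.18) and miR-1197-3p (76, 79 and 5 counts, -2.53). The other 4 were miR-1188-5p (11, 11 and 4 counts), miR-1193-5p (50, 47 and 21), miR-1247-5p (15, 32 and 7) and miR-3072-3p (198, 188 and 110).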

How the data were processed

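The values deposited by the authors are raw counts, whole numbers with a row for each mature miRNA of a precursor. Reads had been trimmed of adapters and low-quality bases, mapped with bowtie2 and counted with miRDeep2. The submitters' processing notes name mm10 and DESeq2, and versions and the miRBase release are not given in the sources used here. The totals of 5064602 to 5952274 counts per library set the precision, and a library at 3 counts or fewer was taken as at the floor. The row of highest total was kept for each of the 627 mature miRNAs in 961 rows. Size factors came from DESeq2 1.42.0 and, as alternatives, edgeR 4.0.16 in R 4.3.3, and other steps used Python 3.11.15, numpy 2.4.6, scipy 1.17.1, pandas 2.3.3 and matplotlib 3.10.9. Log2 ratios used a pseudocount of 0.5 and a minimum mean normalized count of 10 over the 3 libraries, and 2 was the threshold. Intervals are exact Clopper-Pearson 95% intervals for ratios and arm shares, Wilson intervals for library shares and exact Poisson intervals for levels. They cover counting error only, as reads carried no molecular identifiers that the sources used here mention. With 1 library per concentration there is no p-value. Mature sequences were looked up in RefSeq on GRCm38.p6 and matched exactly, on the sense strand, against the GENCODE M21 transcripts of that build. The steps were tested on simulated data. Members and lists were chosen with earlier results of these data known. Members were named when among the 10 of highest mean, when among the 5 highest or 5 lowest ratios of a comparison with an interval leaving out 0, when both arms or a floor count were present, when at the edge of the rule, or when sharing a seed. Members in the named sequence groups and the single row below -2 at no minimum were named after their values were seen. Alternatives were other scalings, minimums, thresholds, bounds and row rules, and leaving out snoRNA and scaRNA members was added after seeing the data.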

Additional observations from a re-analysis of the deposited data

How the results depend on the processing

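No paired analysis was possible because each concentration has a single library, which also left no replicate to omit. Total-count scaling shifted the median of all miRNAs between 100 and 0 μM by -1.52 on the log2 scale. It gave 1 late-numbered miRNA above 2 (0.675% of all) and 17 below -2 (35.9% of all) with a median of -0.85, and 1 and 15 with a median of -0.74 between 100 and 10 μM. Library sizes without the 10 most abundant miRNAs (shift -0.58) gave 5 above and 9 below, and 7 above with a median of 0.18 between 100 and 10 μM. These follow from the common shift. A scaling moves both number classes alike, so the gap between their medians could hardly change and is no support. Between 100 and 0 μM the late median was higher by 0.83 in the values reported. With total counts the gap was 0.75, and without the 10 most abundant 0.80. With no minimum it was 0.57, and with at least 30 counts at 0 μM it was 0.41. TMM and upper-quartile factors shifted the median by 0.08 and 0.01. With no minimum, 2 were below -2 at 10 μM and the median there was -0.12. A mean of at least 100 left 21 members, with 5 above 2 and 0 below -2 between 100 and 0 μM, the same 5 and 0 as counts between 100 and 10 μM, and 0 below -2 at 10 μM. A 0 μM count of at least 30 left 41 members, with 6 above and 2 below at 100 μM, 0 below at 10 μM and 7 above between 100 and 10 μM. Over all 506 miRNAs with such counts, 10.5% lay above and 9.49% below at 100 μM, and 12.5% above between 100 and 10 μM. At 10 μM 0.395% of these 506 lay below. A threshold of 1 gave 31 above and 10 below at 100 μM, 3 and 2 at 10 μM, and 32 and 11 between 100 and 10 μM. Such settings alter the number of members counted. No counts over all miRNAs were made for the threshold of 1, the mean of at least 100 or sizes without the 10 most abundant. Those numbers are therefore not a result about the class. Summed rows gave late-numbered shares of 0.506%, 0.440% and 0.680%, numbers from 3000 gave 0.237%, 0.232% and 0.313%, and with the 7 left-out numbers put back they were 0.607%, 0.566% and 0.759%. Without snoRNA and scaRNA members, which holds 56, 0 were below -2 at 10 μM, as miR-3069-3p is among them. Of 720 values of single miRNAs under an alternative, 633 stayed within their counting interval and 87 did not. Of values beyond 2, 0 changed sign, but no scaling shifted ratios by as much as 2, so this could hardly occur. Smaller values did change sign with total-count scaling, such as those of both miR-1843 entries and both miR-3068 arms between 100 and 0 μM. Low counts limit the lowest values most, with 9 of the 82 at 3 counts or fewer at 100 μM, although that library had the highest total. Such counts could not appear at 0 μM, where no miRNA of the table had fewer than 10.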
